A study of Mus musculus with 18 samples.

Results

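A list of 10 genes that mark the alveolar type 1 cell was followed through 18 RNA-seq libraries of EpCAM-captured mouse lung cells. They are Hopx, Ager, Pdpn, Aqp5, Clic5, Rtkn2, Cav1, Cav2, Spock2 and Sema3e. They are 10 of the 15544 genes measured and were taken as a list of known markers, with earlier results of these data known. All 10 passed the filter on low values. The cells came from lungs of animals aged 10 to 12 weeks and carried the epithelial surface protein EpCAM, by which magnetic beads held them back before total RNA was extracted. Wild-type animals gave 5 libraries (replicates 1 to 5), Falcor-/- animals gave 5 (6 to 10), Foxa2+/- animals gave 4 (11 to 14), and animals labelled Double-Het, Falcor+/-;Foxa2+/-, gave 4 (15 to 18). No group carries a Cre driver or a transgene in the labels, and strain and sex are not given there.

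Alveolar type 1 cells are the thin, spread-out cells across which the lung exchanges gas, and they lie against the capillary endothelium with a shared basement membrane between. They can arise from alveolar type 2 cells, the cuboidal cells that make surfactant, through an intermediate state rich in keratins. Their membranes are dense with caveolae, flask-shaped pits coated by caveolins, and endothelial cells carry the same pits. For that reason Cav1 and Cav2 mark both cell types, and Cdh5, which encodes the cadherin of endothelial junctions, was used here to ask which markers moved with endothelial RNA. Foxa2 encodes a forkhead transcription factor of endoderm-derived epithelia, and Falcor is a long non-coding RNA made from the neighbouring gene.

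The levels are the authors' quantile-normalized log2 values, not divided by gene length, so a level is compared between libraries and never between genes. Quantile normalization gives each library the same distribution, the library medians were 11.03, and the depth behind a level is unknown. Falcor RNA (annotated as 9030622O22Rik) had a mean level of 6.20 ± 0.68 (SD, n = 5) in the Falcor-/- group against 10.18 ± 0.48 (SD, n = 5) in wild-type libraries. In the Foxa2+/- libraries it averaged 11.70 ± 0.21 (SD, n = 4). Libraries labelled Double-Het averaged 11.66 ± 0.15 (SD, n = 4) and so were not lower than wild type. Foxa2 was 12.97 ± 0.08, 12.74 ± 0.23, 12.39 ± 0.05 and 12.36 ± 0.19 in wild type, Falcor-/-, Foxa2+/- and Double-Het, and Epcam was 13.89 ± 0.11, 14.17 ± 0.16, 13.98 ± 0.16 and 14.19 ± 0.24 in that order. All 10 markers were detected in all 18 libraries, the lowest value being 11.15 for Pdpn. In bulk RNA of this kind, fewer cells of a type and less RNA per cell cannot be told apart.

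A pair of libraries stood apart from their groups. Wild-type replicate 3 was the lowest wild-type library in 10 of the 10 markers, and Falcor-/- replicate 10 was the highest Falcor-/- library in 7 of 10. They also lay farthest from their genotype means in Cdh5, at -1.04 for wild-type replicate 3 and 1.22 for Falcor-/- replicate 10. Falcor-/- replicate 8 was close behind, at -0.94. Results that rest on wild-type replicate 3 or Falcor-/- replicate 10 are given with and without that library.

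Promoter sequences are shown for 4 of the markers because the groups that lack a copy of Foxa2 raise the question of which markers hold a forkhead motif: Pdpn and Cav2 hold one, Cav1 is the partner gene of Cav2, and Aqp5 is the marker whose mean lay above wild type in all 3 mutants. Each is the 250 bases before the annotated start, 5′ to 3′ on the gene's strand, from RefSeq on GRCm38.p6, a different build from the mm9 the authors aligned to. The motifs searched were TGTTTAC and TGTTTGC on both strands, and capitals mark a match. Of the 10 markers, 9 had an entry, with 11 entries in all, and Rtkn2 had none.
Pdpn, chr4:143299565-143299814, minus strand: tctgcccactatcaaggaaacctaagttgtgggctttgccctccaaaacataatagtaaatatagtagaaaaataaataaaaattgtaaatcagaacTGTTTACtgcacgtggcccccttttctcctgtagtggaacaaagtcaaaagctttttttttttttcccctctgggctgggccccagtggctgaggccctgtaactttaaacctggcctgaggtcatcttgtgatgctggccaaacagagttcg
Cav2, chr6:17280935-17281184, plus strand: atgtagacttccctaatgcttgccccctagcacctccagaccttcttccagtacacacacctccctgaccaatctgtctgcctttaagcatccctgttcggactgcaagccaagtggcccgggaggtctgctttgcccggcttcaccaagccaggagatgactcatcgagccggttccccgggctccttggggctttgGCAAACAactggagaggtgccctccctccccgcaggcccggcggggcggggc
Cav1, chr6:17306085-17306334, plus strand: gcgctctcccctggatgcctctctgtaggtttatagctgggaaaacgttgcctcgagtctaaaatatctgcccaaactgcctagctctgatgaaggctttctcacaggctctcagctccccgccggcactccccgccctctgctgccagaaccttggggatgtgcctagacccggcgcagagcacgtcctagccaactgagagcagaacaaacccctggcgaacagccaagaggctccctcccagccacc
Aqp5, chr15:99590778-99591027, plus strand: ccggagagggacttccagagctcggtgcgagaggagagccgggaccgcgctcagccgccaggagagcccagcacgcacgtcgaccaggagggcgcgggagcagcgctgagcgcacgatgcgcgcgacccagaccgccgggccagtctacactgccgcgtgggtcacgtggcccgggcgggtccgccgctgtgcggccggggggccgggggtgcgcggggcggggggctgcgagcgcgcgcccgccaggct
In Pdpn the capitals are TGTTTAC, first base 153 bases before the start. In Cav2 they are GCAAACA, which is TGTTTGC on the other strand, 52 bases before the start. Among all 32851 mouse promoter entries, 3.17% hold TGTTTAC, 4.3% hold TGTTTGC and 7.29% hold either. The other 9 entries of the markers, the upstream windows of Cav1 and Aqp5 among them, do not contain these letters. A match describes letters in this window and is not a measured site.

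In Foxa2+/- cells 8 of the 10 markers fell and in Double-Het cells 7 fell, whereas in Falcor-/- cells none passed the test. The falls left Rtkn2, Spock2 and Clic5 at 41.3%, 42.5% and 44.8% of wild type in Foxa2+/- cells, and Cav1 and Spock2 at 41.0% and 41.3% in Double-Het cells. Aqp5 was the exception in both, at 102% and 128% of wild type, neither past the test. Across all 15249 genes tested, limma with Benjamini-Hochberg adjustment called 6.11% in Foxa2+/- against wild type (4.15% as lower), 14.8% in Double-Het (7.57% as lower) and 9.47% in Falcor-/- (4.24% as lower). The median change of the markers was -0.84 log2 units in Foxa2+/-, -0.70 in Double-Het and -0.20 in Falcor-/-, beside 0.04, 0.07 and 0.03 for all genes. Without Double-Het replicate 16 the count of 7 was 4, with 8.8% of all genes called. The 3 comparisons share the 5 wild-type libraries and are therefore set side by side without a test of their overlap. The labels do not say whether libraries are separate animals, so p-values measure the spread between these libraries.

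**Figure D1:**
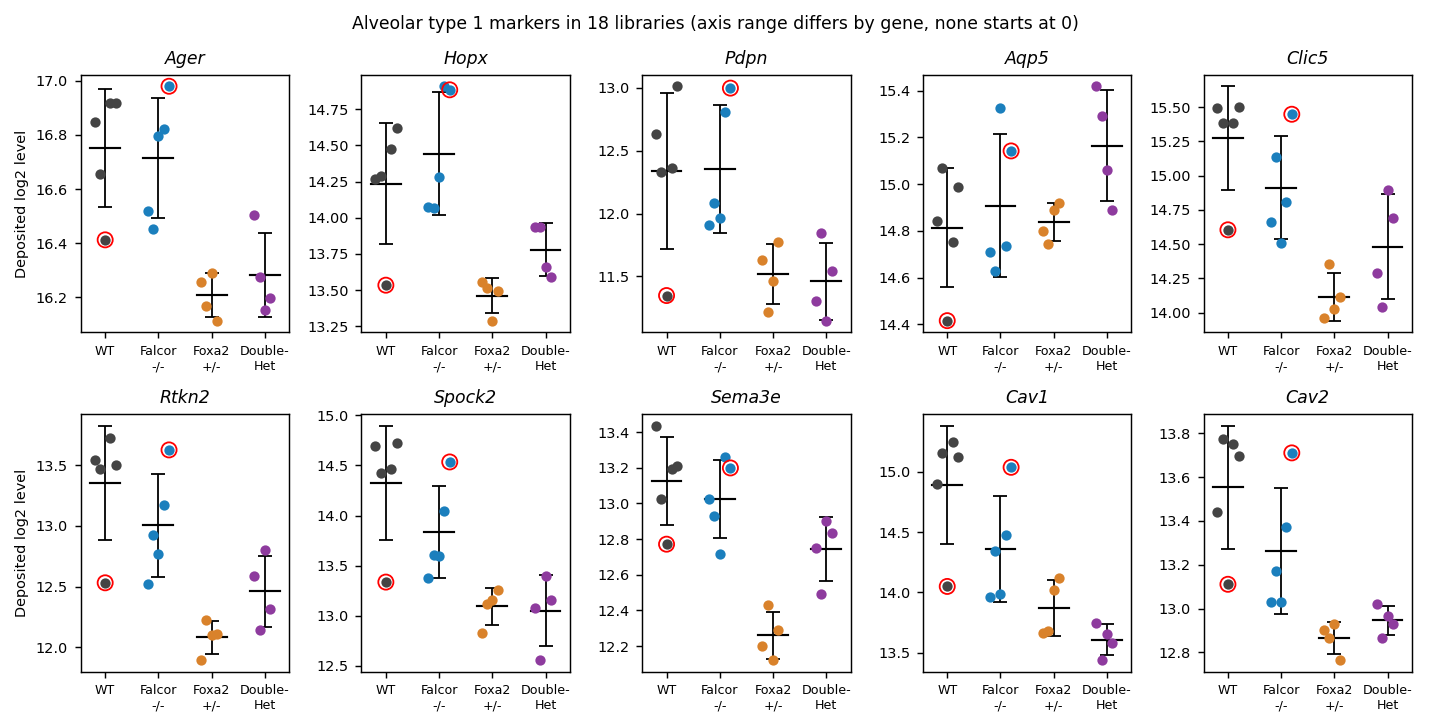
Deposited log2 level (y axis, range set per gene) of each of the 10 markers in the 18 libraries, by genotype on the x axis, where points are libraries, horizontal lines are group means and error bars are ± SD (n = 5, 5, 4 and 4). Red circles mark wild-type replicate 3, the lowest wild-type library in each panel, and Falcor-/- replicate 10.

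Ager encodes RAGE, a receptor of the basal membrane that is among the most abundant type 1 cell proteins. Its level in wild-type replicates 1 to 5 was 16.85, 16.66, 16.41, 16.92 and 16.92, and in Falcor-/- replicates 6 to 10 it was 16.52, 16.45, 16.80, 16.82 and 16.98. It was 16.26, 16.17, 16.29 and 16.11 in Foxa2+/- replicates 11 to 14, and 16.50, 16.28, 16.16 and 16.20 in Double-Het replicates 15 to 18. Foxa2+/- libraries all lay below the lowest wild-type library, and Double-Het libraries overlapped it through replicate 15. Ager fell by 0.54 in Foxa2+/- (SE 0.12, adjusted p = 0.0120, to 68.6% of wild type) and fell by 0.47 in Double-Het (SE 0.12, adjusted p = 0.0165, to 72.3%). The difference of Falcor-/- from wild type was -0.04 (95% confidence interval -0.28 to 0.21).

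Pdpn encodes podoplanin, a mucin-like protein of the apical membrane that lymphatic endothelium and mesothelium also carry. It was 12.63, 12.33, 11.35, 12.36 and 13.01 in wild type, and 11.91, 12.09, 11.97, 12.81 and 13.00 in Falcor-/-. It was 11.63, 11.22, 11.46 and 11.78 in Foxa2+/-, and 11.30, 11.85, 11.15 and 11.54 in Double-Het. The wild-type spread was the widest of the 10 markers (SD 0.62), and replicate 3 lay below 3 of the 4 Foxa2+/- libraries and 2 of the 4 Double-Het libraries. The Foxa2+/- difference of -0.82 (SE 0.28) missed the threshold, with adjusted p = 0.108 and an exact permutation p of 0.0556, and passed it without wild-type replicate 3 (-1.06, adjusted p = 0.0103). In Double-Het, Pdpn fell by 0.88 (SE 0.28, adjusted p = 0.0472), a call that was lost in 8 of the 9 fits that left out 1 library and kept without wild-type replicate 3 (-1.12, adjusted p = 0.0048). Of 4 lymphatic endothelial genes measured, 1 fell in Falcor-/-, 1 in Foxa2+/- and 2 in Double-Het. Of all genes tested, 4.24%, 4.15% and 7.57% were called lower in that order. Lyve1, a hyaluronan receptor, differed by -2.24 (adjusted p = 0.0139), -1.60 (adjusted p = 0.0713) and -3.78 (adjusted p = 0.000110) in that order, and Flt4, a receptor for VEGF-C, by -0.88 (adjusted p = 0.0778), -2.28 (adjusted p = 0.000755) and -2.72 (adjusted p = 7.83e-05). Prox1 and Reln were not called, and Reln lay above wild type by 0.27 in Falcor-/- and by 0.31 in Double-Het. The mesothelial list had no called fall in any genotype, with median changes of -0.71, 0.33 and -0.60 in that order. Its mean level ran from 8.55 to 12.58 within Foxa2+/- alone, so the lack of a call does not show an unchanged level. The part of lymphatic RNA in the Pdpn level was not tested.

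Aqp5 encodes the water channel of the apical membrane. It was 14.84, 15.07, 14.42, 14.75 and 14.99 in wild type, and 14.71, 14.63, 15.32, 14.73 and 15.14 in Falcor-/-. It was 14.80, 14.74, 14.89 and 14.92 in Foxa2+/-, and 15.42, 15.29, 15.06 and 14.89 in Double-Het. The 4 genotypes overlapped throughout. The difference from wild type was 0.02 in Foxa2+/- (95% confidence interval -0.30 to 0.35, adjusted p = 0.963) and 0.35 in Double-Het (0.03 to 0.67, adjusted p = 0.131), where the 4 libraries lay above the wild-type mean.

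Clic5 encodes an intracellular chloride channel family protein that sits with the actin cytoskeleton below the membrane. It was 15.50, 15.38, 14.60, 15.38 and 15.50 in wild type, and 14.67, 15.14, 14.51, 14.80 and 15.45 in Falcor-/-. It was 13.96, 14.36, 14.03 and 14.11 in Foxa2+/-, and 14.29, 14.04, 14.89 and 14.69 in Double-Het. Foxa2+/- libraries all lay below both wild type and Falcor-/-, and the Double-Het libraries overlapped both. Clic5 fell by 1.16 in Foxa2+/- (SE 0.21, adjusted p = 0.00267) and fell by 0.79 in Double-Het (SE 0.21, adjusted p = 0.0196), a call lost without Double-Het replicate 15 (adjusted p = 0.0656) or 16 (adjusted p = 0.0827).

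Hopx encodes a small homeodomain protein that does not bind DNA and works as a cofactor in the nucleus. It was 14.27, 14.29, 13.53, 14.47 and 14.62 in wild type, and 14.07, 14.07, 14.28, 14.91 and 14.88 in Falcor-/-. It was 13.56, 13.51, 13.29 and 13.49 in Foxa2+/-, and 13.94, 13.93, 13.66 and 13.59 in Double-Het. Foxa2+/- lay below every Falcor-/- and Double-Het library, and overlapped wild type only through replicate 3. Hopx fell by 0.77 in Foxa2+/- (SE 0.21, adjusted p = 0.0325), a call lost in 8 of the 9 fits without 1 library, where adjusted p reached 0.106, and kept without wild-type replicate 3 (-0.95, adjusted p = 0.0023). The Double-Het difference of -0.46 had an adjusted p of 0.147, and of 0.0243 without that replicate (-0.63).

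Rtkn2 encodes a cytoplasmic signalling protein. It was 13.55, 13.47, 12.53, 13.73 and 13.50 in wild type, and 12.52, 12.93, 12.77, 13.18 and 13.63 in Falcor-/-. It was 11.89, 12.22, 12.10 and 12.11 in Foxa2+/-, and 12.58, 12.14, 12.80 and 12.31 in Double-Het. Foxa2+/- lay below every wild-type and Falcor-/- library. Rtkn2 fell by 1.27 in Foxa2+/- (SE 0.23, adjusted p = 0.00211), the largest change among the 10 markers in that comparison, and fell by 0.90 in Double-Het (SE 0.23, adjusted p = 0.0140), a call lost without Double-Het replicate 16 (adjusted p = 0.057).

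The secreted markers are Spock2, which encodes testican-2, a proteoglycan of the extracellular matrix, and Sema3e, which encodes a semaphorin read by plexin-D1 on endothelial cells. Spock2 was 14.69, 14.42, 13.34, 14.47 and 14.72 in wild type, and 13.38, 13.60, 13.60, 14.04 and 14.53 in Falcor-/-. It was 12.83, 13.12, 13.16 and 13.26 in Foxa2+/-, and 13.08, 12.56, 13.40 and 13.16 in Double-Het. Wild-type replicate 3 lay above every Foxa2+/- library, below every Falcor-/- library and below Double-Het replicate 17. Of the 5 Falcor-/- libraries, 4 lay below the wild-type mean. Spock2 fell by 1.23 in Foxa2+/- (SE 0.27, adjusted p = 0.00855) and fell by 1.28 in Double-Het (SE 0.27, adjusted p = 0.00386).

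Sema3e was 13.44, 13.03, 12.77, 13.19 and 13.21 in wild type, and 13.03, 12.93, 12.72, 13.26 and 13.20 in Falcor-/-. It was 12.20, 12.43, 12.12 and 12.29 in Foxa2+/-, and 12.75, 12.49, 12.90 and 12.83 in Double-Het. Here Foxa2+/- lay below every library of the other 3 genotypes, which overlapped one another. Sema3e fell by 0.87 in Foxa2+/- (SE 0.13, adjusted p = 0.000755), the smallest adjusted p of the 10 markers there, with an exact permutation p of 0.00794, the smallest that 126 regroupings can give. The Double-Het difference of -0.38 (SE 0.13) missed the threshold with adjusted p = 0.0552, and was called without wild-type replicate 3 (-0.47, adjusted p = 0.0159).

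Cav1 and Cav2 encode the caveolins that coat caveolae, and Cav2 depends on Cav1 to reach the membrane. Cav1 was 14.90, 15.15, 14.05, 15.25 and 15.12 in wild type, and 13.96, 14.35, 13.99, 14.47 and 15.04 in Falcor-/-. It was 13.66, 13.68, 14.02 and 14.12 in Foxa2+/-, and 13.75, 13.44, 13.66 and 13.58 in Double-Het. Double-Het lay below every wild-type and Falcor-/- library. Cav1 fell by 1.29 in Double-Het (SE 0.23, adjusted p = 0.00117) and fell by 1.03 in Foxa2+/- (SE 0.23, adjusted p = 0.0114, to 49.1% of wild type). Cav2 was 13.44, 13.77, 13.11, 13.75 and 13.70 in wild type, and 13.03, 13.17, 13.03, 13.37 and 13.71 in Falcor-/-. It was 12.90, 12.86, 12.93 and 12.77 in Foxa2+/-, and 13.02, 12.87, 12.97 and 12.93 in Double-Het. Both Foxa2-deficient genotypes lay below every wild-type and Falcor-/- library. Cav2 fell by 0.69 in Foxa2+/- (SE 0.14, adjusted p = 0.00492) and fell by 0.61 in Double-Het (SE 0.14, adjusted p = 0.00694).

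**Figure D2:**
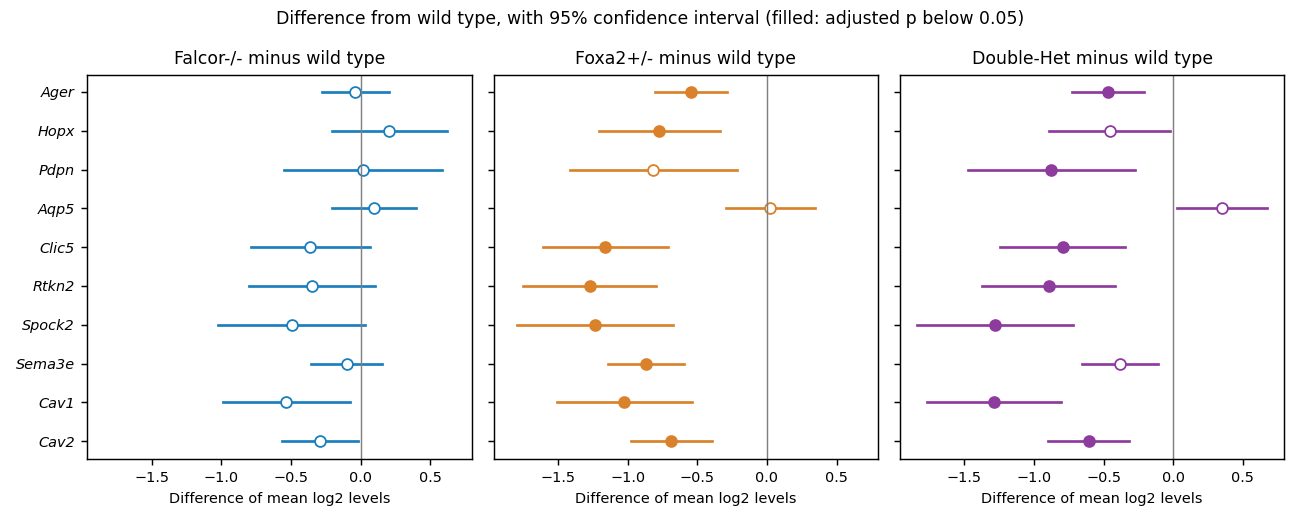
Difference of mean log2 level from wild type (x axis) for each marker (y axis) in Falcor-/-, Foxa2+/- and Double-Het, with 95% confidence intervals and filled points for an adjusted p below 0.05. Filled points number 0, 8 and 7, and Aqp5 lies at 0.09, 0.02 and 0.35.

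Separation of whole groups followed wild-type replicate 3. The Foxa2+/- libraries lay wholly below wild type for 6 markers (5.48% of all genes did so), and for 9 without replicate 3 (8.12%). Double-Het libraries lay wholly below wild type for 2 markers, Cav1 and Cav2 (7.1% of all genes), and for 9 without replicate 3 (9.16%). Aqp5 was the marker left out of both counts of 9.

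In Falcor-/- cells limma called 0 of the 10 markers, and 2, Cav1 and Cav2, had an unadjusted p below 0.05, as did 33.5% of all genes. The exact permutation test gave no p below 0.119 for any marker. The differences ran from -0.53 for Cav1 (adjusted p = 0.103) and -0.50 for Spock2 to 0.21 for Hopx. This count of 0 rested on the libraries that stood apart: 3 markers were called without wild-type replicate 3 (Cav1 -0.74, Cav2 -0.40, Spock2 -0.74, with 9.14% of all genes called), and 2 without Falcor-/- replicate 10 (Cav1 -0.70, Cav2 -0.40, with 7.33%). With both left out, an alternative chosen after seeing the data, 5 were called (8.94% of all genes): Spock2 -0.92, Cav1 -0.91, Rtkn2 -0.71, Clic5 -0.66 and Cav2 -0.51.

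Between the mutants, 5 markers were lower in Foxa2+/- than in Falcor-/- cells (16.7% of all genes were called, 8.56% as lower): Hopx (difference -0.98, adjusted p = 0.00812), Rtkn2 (-0.92, 0.0157), Clic5 (-0.80, 0.0221), Sema3e (-0.77, 0.00274) and Ager (-0.51, 0.0148). Clic5 lost its call without Falcor-/- replicate 10 or Foxa2+/- replicate 13 or 14, and the count was 8 without Falcor-/- replicate 7, where 31.1% of all genes were called. Those groups did not overlap for 8 markers, against 6.86% of all genes in that direction. Double-Het against Falcor-/- gave 0 calls with limma (5.15% of all genes), although 8 markers had an unadjusted p below 0.05 (21.2% of all genes) and 4 did not overlap (4.05% of all genes). The closest to the threshold there was Ager, at -0.43 (adjusted p = 0.0508), which was called without Falcor-/- replicate 6 or 7 or Double-Het replicate 15. Hopx was also called without Falcor-/- replicate 7, and Cav1 without replicate 8. Double-Het against Foxa2+/- also gave 0 calls (2.43% of all genes), with 1 unadjusted p below 0.05 (18.2% of all genes). That was Sema3e, higher in Double-Het by 0.49 (95% confidence interval 0.20 to 0.77, adjusted p = 0.0702). It and Hopx were the 2 markers with every Double-Het library above every Foxa2+/- library (6.54% of all genes did so).

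The order of the 4 genotype means was the same for Ager, Clic5, Rtkn2, Cav2 and Sema3e: wild type highest, then Falcor-/-, Double-Het and Foxa2+/-. Cav1 and Spock2 exchanged the last places, with Double-Het lowest. Hopx and Pdpn were highest in Falcor-/-, and Aqp5 was highest in Double-Het and lowest in wild type. Wild type and Falcor-/- did not differ past the threshold for any marker, nor did Foxa2+/- and Double-Het, so those neighbours are not ordered beyond their spread.

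Cdh5 itself was 14.46, 14.58, 13.31, 14.62 and 14.79 in wild type, and 13.51, 13.17, 12.49, 13.30 and 14.64 in Falcor-/-. It was 11.77, 12.30, 11.99 and 11.80 in Foxa2+/-, and 11.26, 10.69, 11.57 and 11.93 in Double-Het. Both Foxa2-deficient genotypes lay below every wild-type and Falcor-/- library. Cdh5 fell by 2.39 in Foxa2+/- (adjusted p = 0.000775, to 19.1% of wild type) and fell by 2.99 in Double-Het (adjusted p = 6.13e-05, to 12.6%), a larger fall than that of any marker. Of its variance over the libraries, 83.7% lay between genotypes, so covariation was measured within them, with 1 mean per genotype and the Cdh5 level of the library as a covariate.

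Within genotypes 6 of the 10 markers rose and fell with Cdh5 (2.24% of all genes had such a positive slope), and these were not only the caveolins. The slope, in log2 units per log2 unit of Cdh5, was 0.59 for Spock2 (SE 0.11, adjusted p = 0.00667), 0.51 for Clic5 (SE 0.08, adjusted p = 0.00108) and 0.47 for both Cav1 (SE 0.11, adjusted p = 0.0243) and Rtkn2 (SE 0.11, adjusted p = 0.0258). It was 0.29 for Cav2 (SE 0.06, adjusted p = 0.0158) and 0.26 for Sema3e (SE 0.06, adjusted p = 0.0430). The Sema3e call was lost in 13 of the 18 fits that left out 1 library, with adjusted p up to 0.262. The 4 others missed the threshold: Pdpn 0.42 (adjusted p = 0.346), Hopx 0.29 (0.406), Ager 0.13 (0.625) and Aqp5 0.04 (0.950). Covariation with Cdh5 therefore did not set Cav1 and Cav2 apart from Clic5, Spock2 and Rtkn2, nor, by its less stable call, from Sema3e. The differences between slopes were not tested.

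The correlations of the same deviations, 10 in all, ran in a similar order over the 18 libraries. Clic5 had a Pearson's r with Cdh5 of 0.863 (permutation p = 0.00072) and a Spearman coefficient of 0.760 (permutation p = 0.00246). Spock2 had r = 0.80 (permutation p = 0.00502) and 0.680 (permutation p = 0.0083), and Sema3e had r = 0.738 (permutation p = 0.00369) and 0.674 (permutation p = 0.00566). The caveolins lay among these. Cav2 had r = 0.785 (permutation p = 0.00513) and a Spearman coefficient of 0.608 (permutation p = 0.0151), and Cav1 had r = 0.749 (permutation p = 0.0114) and 0.536 (permutation p = 0.0369). Rtkn2 had r = 0.746 (permutation p = 0.0104) and 0.655 (permutation p = 0.0124). For Hopx, Pdpn, Ager and Aqp5, r was 0.512, 0.535, 0.423 and 0.0895, with permutation p of 0.0856, 0.0651, 0.167 and 0.796, and the Spearman coefficients were 0.360, 0.340, 0.362 and 0.0898, with permutation p of 0.196, 0.217, 0.193 and 0.759.

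Most of this rested on wild-type replicate 3 and Falcor-/- replicate 10. Over the other 16 libraries r was 0.696 for Clic5, 0.644 for Sema3e and 0.441 for Spock2, but 0.296 for Cav2, 0.258 for Rtkn2 and 0.192 for Cav1. For Ager, Hopx, Pdpn and Aqp5 it was -0.317, -0.164, -0.149 and -0.727. The count of markers with a called slope was 1 without wild-type replicate 3, 1 without Falcor-/- replicate 10 and 0 without both, and called slopes over all genes fell from 350 to 190, 132 and 28. A marker restricted to epithelium therefore could not be separated from a shared one at this number of libraries.

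**Figure D3:**
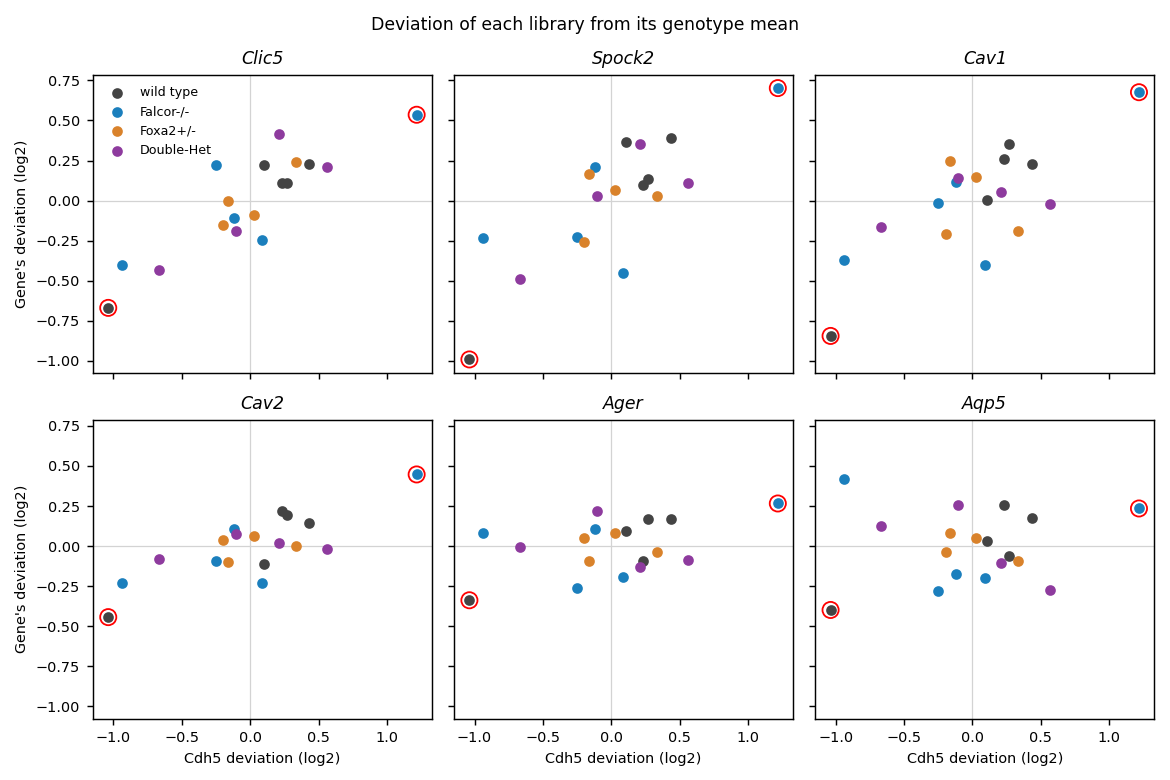
Deviation of each library from its genotype mean for 6 markers (y axis, log2) against that of Cdh5 (x axis, log2), coloured by genotype, with wild-type replicate 3 and Falcor-/- replicate 10 ringed in red. The ringed libraries lie at the ends of the x axis, at -1.04 and 1.22, and the clouds of Clic5 and Spock2 slope upward while that of Aqp5 does not.

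Among themselves the markers moved together within genotypes, with a median r of 0.680 over all pairs and a range of -0.08 to 0.93. Rtkn2 and Spock2 had the highest r, 0.934 (0.781 without the 2 libraries), followed by Cav1 and Cav2 at 0.902 (0.633). Hopx paired with Pdpn at 0.859 (0.678) and with Ager at 0.83 (0.655). Without the 2 libraries the median over all pairs was 0.232. These values are descriptions over 18 libraries that share their normalization.

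Leaving out the markers, unnamed and predicted genes and pseudogenes, the 5 genes most like Ager in their deviations over the 18 libraries were Rab12, a GTPase of membrane traffic (r = 0.885), Eva1b (0.879), Pink1, a kinase of mitochondrial quality control (0.871), Krt7, a simple-epithelial keratin (0.865), and Mrps18a, a mitochondrial ribosomal protein (0.859). Those most like Cav1 were Lims2, a focal adhesion protein (0.939), Sparcl1, a matrix protein (0.935), Ccdc9b (0.929), Stx11, a syntaxin (0.927), and Ablim3, an actin-binding protein (0.921). Without the 2 libraries these values were 0.759 to 0.791 for Ager and 0.739 to 0.832 for Cav1. Cdh5 stood at 0.423 with Ager and 0.749 with Cav1.

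A further 20 genes known from type 1 cells were taken as a second list. In Foxa2+/- cells 4 fell and none rose, in Double-Het 7 fell and 1 rose, and in Falcor-/- 1 fell. The median changes were -0.50, -0.42 and -0.17. Over all 15249 genes tested, 4.15%, 7.57% and 4.24% were called lower in that order, and 1100 were called higher in Double-Het. The counts of 1 in 20 lie near these shares. Pmp22, a tetraspan membrane protein, fell by 1.25 in Foxa2+/- (adjusted p = 0.00228) and fell by 1.08 in Double-Het (adjusted p = 0.00387). In Foxa2+/- cells Akap5, a kinase anchor, fell by 1.22 (adjusted p = 0.0168) and Emp2, a tetraspan protein of the same family as Pmp22, fell by 0.55 (adjusted p = 0.0264). Col4a3, which encodes a chain of basement membrane collagen IV, fell by 1.04 in Double-Het (adjusted p = 0.00564). Col4a4, for another chain, fell by 0.81 in Falcor-/- (adjusted p = 0.0275), the only call of the list there. Gramd2, a marker of type 1 cells, went the other way in Double-Het and rose by 0.49 (adjusted p = 0.00105). Positive Cdh5 slopes were called for 5 of these 20 genes (2.24% of all genes): Akap5, Emp2, Vegfa, Pmp22 and Col4a3.

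The caveola list held 8 measured genes that build or shape the pits with caveolins. In Foxa2+/- 2 fell and 1 rose, in Double-Het 3 fell and 1 rose, and in Falcor-/- 1 rose. Of all 15249 genes tested, 4.15% were called lower in Foxa2+/- and 7.57% in Double-Het. Called higher were 299 in Foxa2+/-, 1100 in Double-Het and 797 in Falcor-/-. Ehd2, an ATPase at the caveola neck, fell by 0.84 in Foxa2+/- (adjusted p = 0.0230) and fell by 0.90 in Double-Het (adjusted p = 0.00888). Cavin2, a coat protein, fell by 0.89 in Foxa2+/- (adjusted p = 0.0220), and Cavin1, the coat protein needed for caveolae, fell by 0.82 in Double-Het (adjusted p = 0.00440), and Ehd4 fell by 0.80 (adjusted p = 0.00427). Pacsin3, a membrane-bending protein, rose by 0.40 in both Falcor-/- (adjusted p = 0.0288) and Foxa2+/- (adjusted p = 0.0366). Positive Cdh5 slopes were called for Cavin2, Ehd2 and Ehd4, and for 2.24% of all genes.

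Endothelial markers fell beside the type 1 markers, with larger median changes. Of 22, 20 fell in Foxa2+/-, 20 in Double-Het and 1 in Falcor-/-, with median changes of -2.16, -2.54 and -0.74. The shares of all genes called lower were 4.15%, 7.57% and 4.24% in that order. Robo4 and Cldn5, a receptor and a junction protein of endothelium, changed by -2.45 and -2.46 in Foxa2+/- (adjusted p = 0.000654 and 0.000754), and the phosphatase gene Ptprb fell by 2.95 in Double-Het (adjusted p = 6.01e-05) and fell by 1.26 in Falcor-/- (adjusted p = 0.0310). The log2 of their summed level ran from 16.57 to 17.96 in wild type, 16.19 to 17.89 in Falcor-/-, 15.58 to 15.94 in Foxa2+/- and 15.24 to 15.69 in Double-Het, and none was listed at the lowest value of the files in any genotype. The mean of the list was 11.38 in wild-type replicate 3 against 12.34 to 12.82 in the other 4, and 12.72 in Falcor-/- replicate 10 against 11.01 to 11.73.

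The mesenchymal list moved the same way, with 2 of 13 genes falling in Falcor-/-, 6 in Foxa2+/- and 11 in Double-Het. All-gene shares called lower were 4.24%, 4.15% and 7.57% in that order. The log2 of its summed level ran from 15.84 to 16.92 in wild type, 15.31 to 16.53 in Falcor-/-, 15.05 to 16.73 in Foxa2+/- and 14.73 to 14.95 in Double-Het. Pdgfra, a receptor of lung fibroblasts, fell by 2.48 in Foxa2+/- (adjusted p = 0.000654) and fell by 2.99 in Double-Het (adjusted p = 4.41e-05). Macrophage markers fell for 5 of 10 genes in Falcor-/- and 5 in Double-Het and for none in Foxa2+/-, beside the same all-gene shares. In contrast, 0 of 12 alveolar type 2 markers were called in any of the 3 comparisons. Their median changes were 0.11 in Foxa2+/-, 0.04 in Double-Het and -0.07 in Falcor-/-. Sftpc, a gene of this list, lay at the highest value of the data in every Falcor-/- and Double-Het library. Its wild-type median lay there too. Quantile normalization ties that value to the top rank, so a rise of Sftpc, or a fall that kept its rank, could not be seen. The lack of a call for Sftpc therefore does not show an unchanged level. Sftpd, a surfactant protein, differed by 0.28 in Foxa2+/- (adjusted p = 0.224), and Abca3, the lipid transporter of lamellar bodies, by -0.42 in Falcor-/- (adjusted p = 0.0775).

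With the endothelial mean as a covariate, no marker was called against wild type in Foxa2+/- or Double-Het, and none had an unadjusted p below 0.05. Ager stood at -0.13 in Foxa2+/- (SE 0.20, 95% confidence interval -0.56 to 0.30) and 0.01 in Double-Het (SE 0.23, -0.47 to 0.49). The same fit left 0 of all genes called in Foxa2+/- and 2 in Double-Het, and 82.1% of the variance of the endothelial mean lies between genotypes. In this design the genotype and the endothelial content of a library cannot be told apart.

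**Figure D4:**
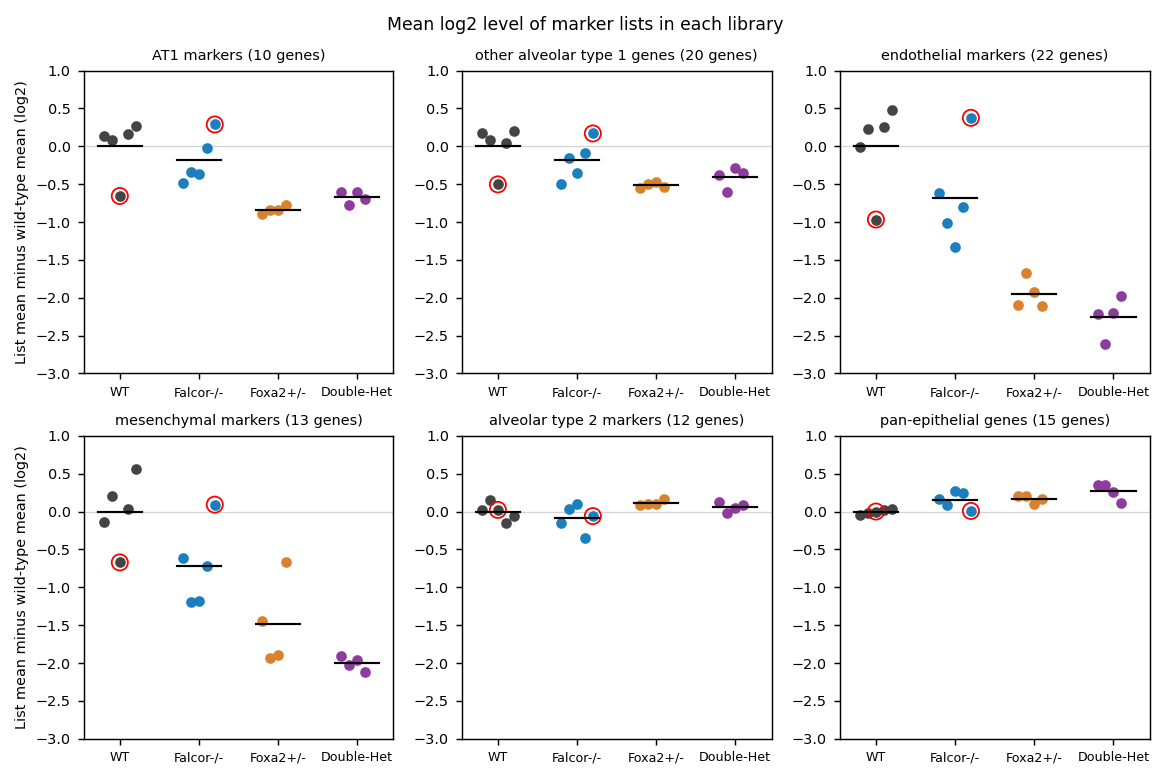
Mean log2 level of 6 gene lists in each library, as the difference from the wild-type mean of the list (y axis), by genotype (x axis), with points for libraries, lines for group means and red rings for wild-type replicate 3 and Falcor-/- replicate 10. The type 1, endothelial and mesenchymal lists are lower in Foxa2+/- and Double-Het, and the type 2 list stays near 0. In the pan-epithelial list every Foxa2+/- and Double-Het library lies above every wild-type library. Its mean levels are 13.69 in wild type, 13.86 in Foxa2+/- and 13.95 in Double-Het. The Falcor-/- mean of this list, 13.84, is also above that of wild type. Falcor-/- replicates 6 to 9 lie above every wild-type library, and replicate 10, at 13.69, does not.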

How the data were processed

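RNA of EpCAM+ lung cells was sequenced in 18 libraries. The deposited values are log2 expression levels of 15544 Ensembl genes. Reads were aligned with STAR to mm9 and limma was used, per the submitters' processing notes. Not given in the sources used here are their versions, the read counter, the annotation, any filter and the strand setting. That the log base is 2 and that the authors quantile normalized the 18 libraries were read from the values: they run from 1 to 18.73, and at the same rank, within the top 90% of ranks, libraries differ by at most 0.0512. Such values hide a change common to most genes, depth cannot be recovered, and no counting interval is given. Symbols were matched by Ensembl identifier (14994 of 15544).

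Genes with a mean below 6 were left out (295), which left 15249. All libraries entered a linear model in limma 3.58.1 (R 4.3.3), which gave each genotype its mean (intensity trend, 14 residual degrees of freedom), and a gene was called below an adjusted p of 0.05, by Benjamini-Hochberg over all genes tested, 2-sided. The Cdh5 slope came from the same model with Cdh5 added. Exact permutation tests of the difference of means (2-sided) used 252, 126 or 70 regroupings, which allow p down to 0.00794, 0.00794 and 0.0286. Permutation p of correlations used 100000 shuffles within genotypes, and these are not adjusted. Scripts were tested on simulated data.

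The markers, the 10 other gene lists (the cell type, caveola and further type 1 lists) and the tests were chosen with earlier results of these data known. Named were all markers, up to 3 called genes with the smallest p per list and comparison with wild type (the 2 smallest where none was called), of which the text gives those it turns on, the 5 genes most like Ager and Cav1, and the genes that check the labels. Genes with a called Cdh5 slope were named after their values were seen. The alternatives are no filter, library weights, fits of 2 genotypes alone, no trend, an endothelial covariate, levels relative to the pan-epithelial mean, other forms of the Cdh5 slope, and leaving out libraries.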

Additional observations from a re-analysis of the deposited data

Results flagged for a closer look

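In wild-type replicate 3 the level of 4 markers lay far below the other 4 wild-type libraries, by Dixon's criterion for the gap at the end of a group: Clic5 at 14.60, Rtkn2 at 12.53, Cav1 at 14.05 and Spock2 at 13.34. Of 40 groups of libraries examined in this way, 4 met the criterion, and chance alone gives about 1 in 20 for independent groups. These 4 are not independent: they share 1 library, and the markers moved together within genotypes. The endothelial list mean of wild-type replicate 3 was also the lowest of wild type, 11.38.

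For 5 markers the level in Foxa2+/- libraries differed from that in Falcor-/- libraries, in limma's test of the 2 mutants against each other. Of all genes, 16.7% were called in that test, 8.56% as lower. The difference, Foxa2+/- minus Falcor-/-, was -0.51 for Ager, -0.80 for Clic5, -0.92 for Rtkn2, -0.98 for Hopx and -0.77 for Sema3e. All 4 Foxa2+/- libraries lay below the Falcor-/- mean in each of the 5. With the endothelial mean as a covariate none of the 10 markers was called in that comparison, and the part of the endothelial RNA in these differences was not tested.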

How the results depend on the processing

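No paired analysis was possible because no 2 genotypes share a replicate number. Leaving out 1 library at a time, the count of called markers ran from 7 to 9 in Foxa2+/- against wild type, 4 to 9 in Double-Het against wild type (4 without Double-Het replicate 16), 0 to 3 in Falcor-/- against wild type, 4 to 8 in Foxa2+/- against Falcor-/-, 0 to 2 in Double-Het against Falcor-/- and 0 to 0 in Double-Het against Foxa2+/-, and from 1 to 6 for the Cdh5 slope. Over those fits the sign changed for Pdpn (-0.23 to 0.18), Aqp5 (-0.01 to 0.16) and Ager (-0.12 to 0.028) in Falcor-/- against wild type, for Aqp5 in Foxa2+/- against wild type (-0.08 to 0.089) and against Falcor-/- (-0.14 to 0.035), for Pdpn (-0.19 to 0.044) and Spock2 (-0.16 to 0.12) in Double-Het against Foxa2+/-, and for the Aqp5 slope (-0.10 to 0.18). None of these was called.

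With library weights the count became 8 in Foxa2+/- against Falcor-/- (31.2% of all genes). It was 1 in Double-Het against Falcor-/- (7.38%) and 2 in Double-Het against Foxa2+/- (13.9%). Aqp5 in Foxa2+/- was -0.011 with these weights. With no filter 1 marker was called in Double-Het against Falcor-/- (5.17% of all genes). Wild-type replicate 3 and Falcor-/- replicate 10 were also left out together, an alternative chosen after seeing the data. Counts were then 5 in Falcor-/- against wild type (8.94% of all genes), 1 in Double-Het against Falcor-/- (3.32%) and 0 for the slope (0.184%). There Hopx, Pdpn and Aqp5 in Falcor-/- were -0.079, -0.39 and -0.065, Aqp5 in Foxa2+/- was -0.075, and the slopes of Hopx, Ager, Pdpn and Aqp5 were -0.11, -0.12, -0.13 and -0.42. With no genotype term the Aqp5 slope was -0.061.

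Relative to the pan-epithelial mean, the median of all genes became -0.13 in Falcor-/-, -0.13 in Foxa2+/- and -0.20 in Double-Het against wild type. All-gene calls, higher and lower, went from 797 and 647 to 286 and 1899, from 299 and 633 to 92 and 1583, and from 1100 and 1154 to 256 and 4135. Against Falcor-/- they went from 1235 and 1305 to 605 and 1609 in Foxa2+/- and from 328 and 457 to 132 and 968 in Double-Het, and in Double-Het against Foxa2+/- from 161 and 209 to 64 and 202. On this scale 4 markers were called in Double-Het against Falcor-/-, Pdpn and Aqp5 in Falcor-/- were -0.14 and -0.061, Aqp5 in Foxa2+/- was -0.15, and Ager and Cav2 in Double-Het against Foxa2+/- were -0.022 and -0.016.

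With the endothelial covariate the counts were 0 in Foxa2+/- (0% of all genes) and 0 in Double-Het (0.0131%) against wild type. Against Falcor-/- the count in Foxa2+/- was 0 (0.0853%), and Double-Het against Foxa2+/- gave 1 (1.97%). Signs turned in Falcor-/- against wild type for Ager (0.11), Clic5 (0.025), Rtkn2 (0.047) and Sema3e (0.092). They turned in Foxa2+/- for Hopx (0.079), Pdpn (0.33), Cav1 (0.16), Cav2 (0.061) and Spock2 (0.16), and in Double-Het for Hopx (0.53), Ager (0.010), Pdpn (0.45), Clic5 (0.49), Rtkn2 (0.43), Cav1 (0.083), Cav2 (0.26), Spock2 (0.33) and Sema3e (0.26). Against Falcor-/- they turned in Foxa2+/- for Aqp5 (0.10), Cav1 (0.28), Cav2 (0.091) and Spock2 (0.17), and in Double-Het for Hopx (0.023), Pdpn (0.032), Clic5 (0.46), Rtkn2 (0.38), Cav1 (0.20), Cav2 (0.29), Spock2 (0.34) and Sema3e (0.16). In Double-Het against Foxa2+/- they turned for Pdpn (0.12) and Spock2 (0.17). The cause was not tested.

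All-gene calls also moved when 1 library was left out: 354 (without wild-type replicate 1) to 3926 (without Falcor-/- replicate 7) in Falcor-/- against wild type, 556 to 1118 in Foxa2+/-, 1342 to 2435 in Double-Het, 764 to 4742 in Foxa2+/- against Falcor-/-, 412 to 1233 in Double-Het against Falcor-/-, 90 to 381 in Double-Het against Foxa2+/-, and 132 to 389 for the slope. They moved with library weights (3446, 1947 and 4939 in Falcor-/-, Foxa2+/- and Double-Het against wild type, 4757 and 2125 in Foxa2+/- against Falcor-/- and Double-Het against Foxa2+/-), with fits of 2 genotypes alone (483 in Falcor-/- against wild type, 1181 and 342 in Foxa2+/- and Double-Het against Falcor-/-) and with the covariate (161, 0 and 2 against wild type, 13 and 4 against Falcor-/-). The called Cdh5 slopes over all genes, 350, became 586 with weights, 1974 with no genotype term, 702 on the pan-epithelial scale and 28 without both libraries. The number of libraries and the unknown depth limit what can be detected.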

Other observations

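Genes of the intermediate state between type 2 and type 1 cells were measured as a list of 10. In Falcor-/- cells 3 rose, in Foxa2+/- 3 rose, and in Double-Het 2 rose and 1 fell. The median changes were 0.29, 0.27 and 0.21. Over all 15249 genes tested, 797, 299 and 1100 were called higher in that order, and 7.57% were called lower in Double-Het. Cldn4, a tight junction claudin, rose by 0.91 in Falcor-/- (SE 0.19, adjusted p = 0.0141) and by 1.11 in Double-Het (SE 0.21, adjusted p = 0.00162). Krt8, a keratin that marks this state and is also general to epithelium, rose by 0.44 in Foxa2+/- (adjusted p = 0.00584) and by 0.29 in Double-Het (adjusted p = 0.0376). Areg, which encodes a ligand of the EGF receptor, rose by 1.36 in Foxa2+/- (SE 0.32, adjusted p = 0.0158), to 257% of wild type. Sfn, a 14-3-3 protein, rose by 0.56 in Falcor-/- (adjusted p = 0.0403). Cdkn1a, which encodes the cell cycle inhibitor p21, fell by 0.89 in Double-Het (SE 0.15, adjusted p = 0.000921).

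The pan-epithelial list of 15 genes shares Krt8 and Krt18 with that list. Of the 15, 3 rose in Falcor-/-, 2 in Foxa2+/- and 3 in Double-Het, and none fell. Beside these stand 797, 299 and 1100 of all 15249 genes called higher. Krt19 rose by 0.51 in Falcor-/- (adjusted p = 0.0390), and Grhl2, a transcription factor of epithelial junctions, rose by 0.35 in Double-Het (adjusted p = 0.0273). None of the 15 had a called slope with Cdh5, and neither did any of the 10 intermediate-state genes.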
